A study of Mus musculus with 12 samples.

Results

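Epithelial cells freshly prepared from the adult mouse lung were compared with epithelial cells from the adult mouse mammary gland across every gene measured on whole-genome expression arrays. The comparison rests on 6 of the study's 12 arrays, chosen by their titles: 3 arrays of lung cells (replicates 1, 2 and 3) and 3 arrays of mammary cells (replicates 1, 2 and 4). The other 6 arrays hold cells named reprogrammed lung and reprogrammed mammary, made in the same study. They enter the shared estimate of spread, the choice of a gene's probe and the rule for which genes were tested, but not the means compared. Both adult groups came from female mice aged 10 weeks, perfused with saline. The labels name no strain, genotype, transgene or drug for either group. The organs were minced and digested with trypsin and collagenase A, the lung for 45 minutes and the mammary gland for 30 minutes, and the epithelium was collected by repeated low-speed centrifugation, in 7 rounds for the lung and 5 for the mammary gland. Digestion time and number of rounds follow the organ, so their effects and that of the organ cannot be told apart. No cell sort is stated. Whether the 3 arrays of an organ represent 3 animals is not stated, so every p-value measures the spread between arrays, which may be technical.

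The lung epithelium lines airways and air sacs. Type II cells of the air sac secrete surfactant, thin type I cells form the surface for gas exchange, and club and ciliated cells line the airways, all under a dense bed of capillaries. The mammary epithelium is a branched tree of luminal cells, some of which sense ovarian hormones and some of which make milk proteins under prolactin, wrapped by contractile basal cells and set in a fat pad. Both epithelia branch during development under signals from the mesenchyme around them, but they start from different germ layers, endoderm for the lung and ectoderm for the mammary gland.

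Each level below is log2 of the scanner's background-corrected signal relative to the 75th percentile of its array, so a level of 0 is a fairly bright probe. Values are listed in the order lung replicates 1, 2 and 3 and mammary replicates 1, 2 and 4, and each difference is lung minus mammary on the log2 scale. Levels of different genes come from different probes and are not compared with each other. Genes entered the test when their probe was well above background on all 3 arrays of at least 1 of the study's 4 groups. Where the lower group was not well above background on all its arrays, the fold is a bound, set against the lowest level that counted as above background, and is written "at least". Within the lung group the arrays correlated at 0.972 to 0.984 over all tested features, and within the mammary group at 0.945 to 0.971, against 0.85 to 0.874 between lung and mammary arrays. These features share arrays and probes, so the correlations are a description. The median gene had an SD of 0.17 over the lung arrays and 0.28 over the mammary arrays.

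A pair of arrays stood apart from the others of their group. Lung replicate 3 carried genes of squamous, cornified epithelium, the kind of epithelium found in skin and upper foregut. Over 23 such genes, a list written after these values were seen, the array medians were -2.88, -2.42 and 2.28 in lung and -1.97, -1.48 and -1.44 in mammary. Asprv1, a protease of the outer epidermis, stood at -2.08, -2.03 and 5.10 in lung. Among 108 genes that ranged over at least 2 log2 units within the lung group, this array was the farthest from the others for 91. Mammary replicate 4 carried lymphocyte genes and had 89.1% of its probes above background, against 71.8% to 76.3% on the other 5 adult arrays. Over 26 lymphocyte genes, a list also written after the values were seen, the array medians were -0.45, -0.23 and -0.35 in lung and -2.84, -2.97 and 0.75 in mammary. Cd3d, a chain of the T cell receptor complex, stood at 0.11, 0.40 and 0.19 in lung and at -3.44, -3.81 and 2.06 in mammary. None of these 26 genes passed the test with that array in the group, and 1 passed without it. In a separate list of 17 T and NK cell genes, 2 were higher in lung with all arrays (11.8%, against 12.7% of all genes) and 4 without that array. Where a count moved much without these arrays it is given both ways, and the part these cells play in other differences was not tested.

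**Figure D1:**
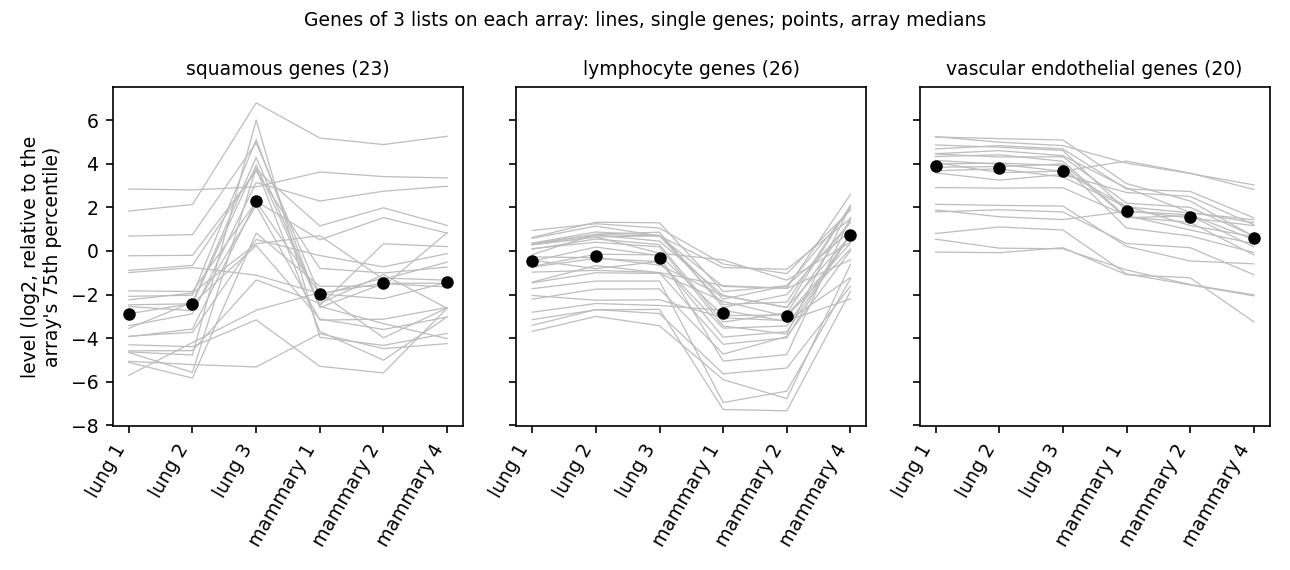
Levels on each adult array (log2, relative to the array's 75th percentile) of the genes of 3 lists: squamous and cornified epithelium (23 genes), lymphocytes (26) and vascular endothelium (20). Grey lines are single genes and black points are the medians of a list on an array. The squamous median is high only on lung replicate 3 (2.28), the lymphocyte median of mammary replicate 4 (0.75) lies above the other 5 arrays, and the endothelial medians of all 3 lung arrays (3.65 to 3.91) lie above all 3 mammary arrays (0.58 to 1.83).

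The organ labels matched the marker lists, and the 2 preparations also differed in cells other than epithelium. Over all genes with a symbol, 12.7% were called higher in lung and 15.9% lower. Of 14 tested type I genes 13 were higher in lung and of 14 type II genes 11, with median differences of 4.28 and 4.43. Of 17 basal genes 11 were lower in lung, as were 10 of 16 milk-lineage luminal genes and 8 of 13 hormone-sensing luminal genes, with medians of -2.68, -3.51 and -3.11. The markers that epithelia share went the same way in every call: 15 of 20 pan-epithelial genes were lower in lung, with a median of -2.08, and 10 were lower without both arrays that stood apart. With slide as a block in the fit, 7 basal, 5 milk-lineage and 5 pan-epithelial genes were lower, and normexp background correction left 5 hormone-sensing genes lower. Epcam, the adhesion molecule of simple epithelia, stood at 0.56, 1.02 and 0.91 in lung and at 4.76, 4.61 and 4.58 in mammary, a difference of -3.82 that lost its call once slide entered the fit as a block. Markers of vascular endothelium went the other way, with 18 of 20 higher in lung and a median of 2.37. In whole preparations such as these, fewer cells of a type and less RNA per cell cannot be told apart. Of 11 adipocyte genes 2 were higher in lung and 3 lower (median -0.3), or 1 and 1 with normexp (median 0.12). Fabp4 had the lowest difference of that list, -4.74. Of 14 fibroblast genes 5 were lower in lung against 2 higher, or 3 against 2 without lung replicate 3.

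Of 24503 features tested, 6979 passed an adjusted p of 0.05 in limma, 3071 higher and 3908 lower in lung (28.5% of all features). Among the 14748 features with a gene symbol, 4218 passed (28.6%), with 1869 higher in lung (12.7%) and 2349 lower (15.9%), and the median difference was -0.02. These shares are the background against which each gene group above and below is read. The 3 lung arrays and the 3 mammary arrays did not overlap at all for 7961 of the genes (54.0%). At least 4-fold differences numbered 520 higher and 616 lower, at least 16-fold 101 and 122, and at least 64-fold 28 and 21. Complete contrasts were unequal: 192 genes were above background on all mammary arrays and on no lung array, and 29 on all lung arrays and on no mammary array. Without mammary replicate 4 and its wide detection the counts were 193 and 231. The share of genes called rose with brightness, from 22.3% in the dimmest of 5 equal bins to 32.4% in the brightest. In the dimmest bin 218 of 658 calls were higher in lung, and in the brightest 452 of 955. The direction of the calls depended on the background correction: 44.0% of the called features were higher in lung, against 60.9% with the normexp model of background (2895 higher and 1858 lower). Once slide entered the fit as a block, 1283 features were higher and 1419 lower; lung replicate 1 and mammary replicate 2 shared a slide, and no other slide held both adult organs.

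**Figure D2:**
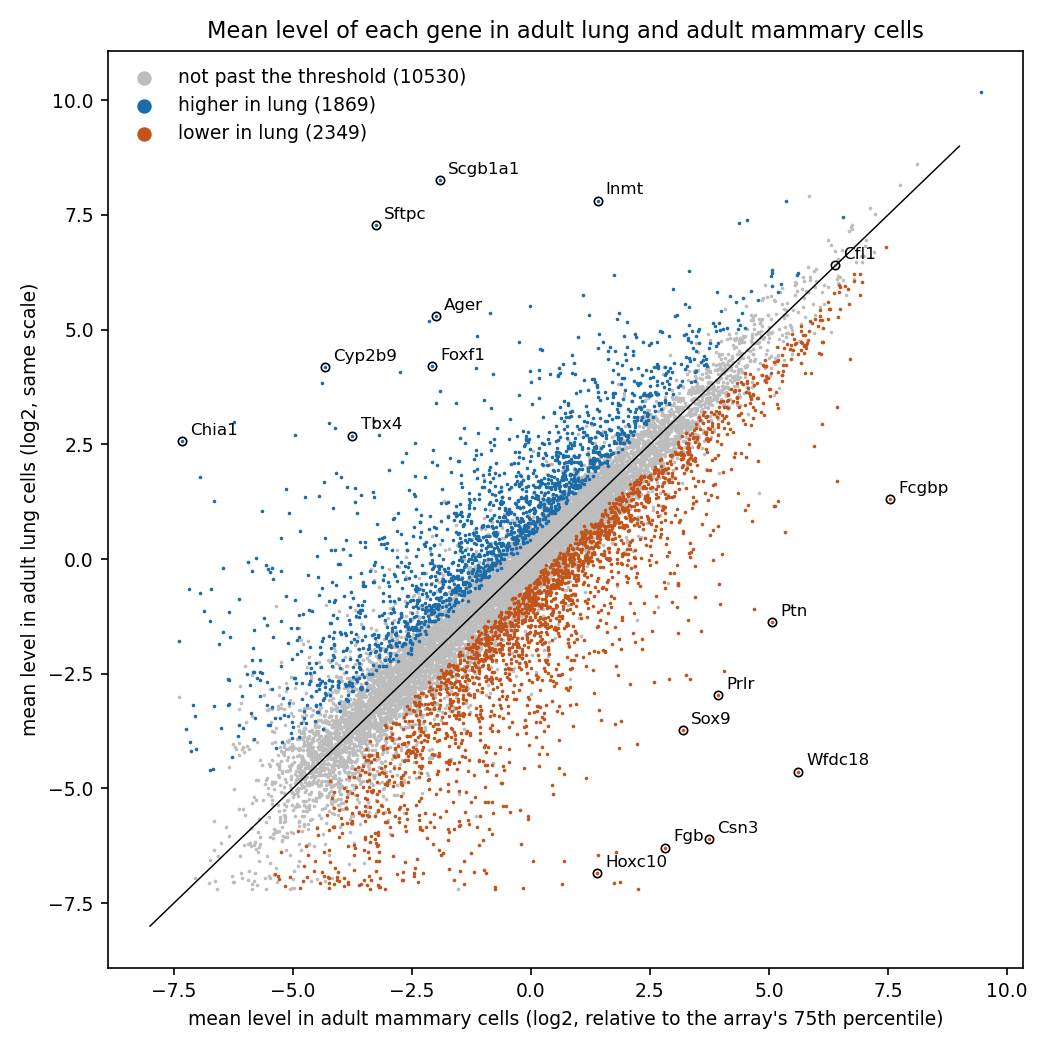
Mean level of each gene with a symbol in adult mammary cells (horizontal) and adult lung cells (vertical), both log2 relative to the array's 75th percentile and averaged over 3 arrays. Blue points passed an adjusted p of 0.05 higher in lung (1869), orange points lower in lung (2349), and the line marks equal levels. Circled genes named in the plot lie far from the line in both directions, except Cfl1 (6.40 in lung and 6.39 in mammary), which lies on it.

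The largest differences toward the lung were in secreted and surface proteins of the airway and air sac. Sftpc, which encodes surfactant protein C, differed by 10.54 (SE 0.54, adjusted p = 4.79e-06), the largest among the probes that stand for a gene. Other probes of Wfdc18 and Sftpa1 differed by more, -11.56 and 10.62. Its levels were 7.20 and 7.34 on lung replicates 1 and 3, with the spot of replicate 2 set aside as an outlier by the scanner program, and -3.46, -3.57 and -2.77 in mammary. Scgb1a1, the secretoglobin of club cells, stood at 7.93, 8.50 and 8.37 in lung and at -1.36, -1.72 and -2.64 in mammary, a 1154-fold difference. Sftpc and Scgb1a1 were both well above background on all 3 mammary arrays, so a low level was measured there too. Chia1, an acidic chitinase that degrades inhaled and ingested chitin, stood at 2.45, 2.59 and 2.68 in lung and was not well above background on any mammary array, at least 215-fold lower there. Ager, the RAGE receptor and a mark of type I cells, stood at 5.29, 5.45 and 5.15 in lung and at -2.04, -2.44 and -1.52 in mammary, 157-fold apart. Cldn18, a tight junction claudin of air sacs and stomach, was at least 204-fold higher in lung and above background on 1 of 3 mammary arrays. Akap5, a scaffold for protein kinase A, was at least 189-fold higher and above background on 1 mammary array.

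Other genes with large differences toward the lung are not specific to its epithelium. Inmt, which methylates indoles and tryptamine, stood at 7.86, 7.77 and 7.80 in lung and at 2.86, 0.42 and 0.93 in mammary, 84.7-fold apart. The lung arrays lay close together while the mammary arrays spread widely. Slc24a4, a sodium, calcium and potassium exchanger, differed by 6.29 and Ces1d, a carboxylesterase, by 5.96. Scn3b, a beta subunit of voltage-gated sodium channels, stood at 2.68, 2.62 and 2.83 in lung and at -3.30, -3.43 and -2.84 in mammary. S100g, the calcium-binding protein calbindin-D9k, differed by 4.92 and was 30.3-fold higher in lung. Chil3, a chitinase-like protein of alveolar macrophages, differed by 5.82, whereas 2 of 13 tested macrophage genes were higher in lung and 3 lower (2 and 1 with normexp). Ppbp, a platelet chemokine, was at least 23.0-fold higher in lung, with 5 of 11 red cell and platelet genes higher and none lower. That count fell to 2 without lung replicate 3, 3 without mammary replicate 4 and 1 without both.

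**Figure D3:**
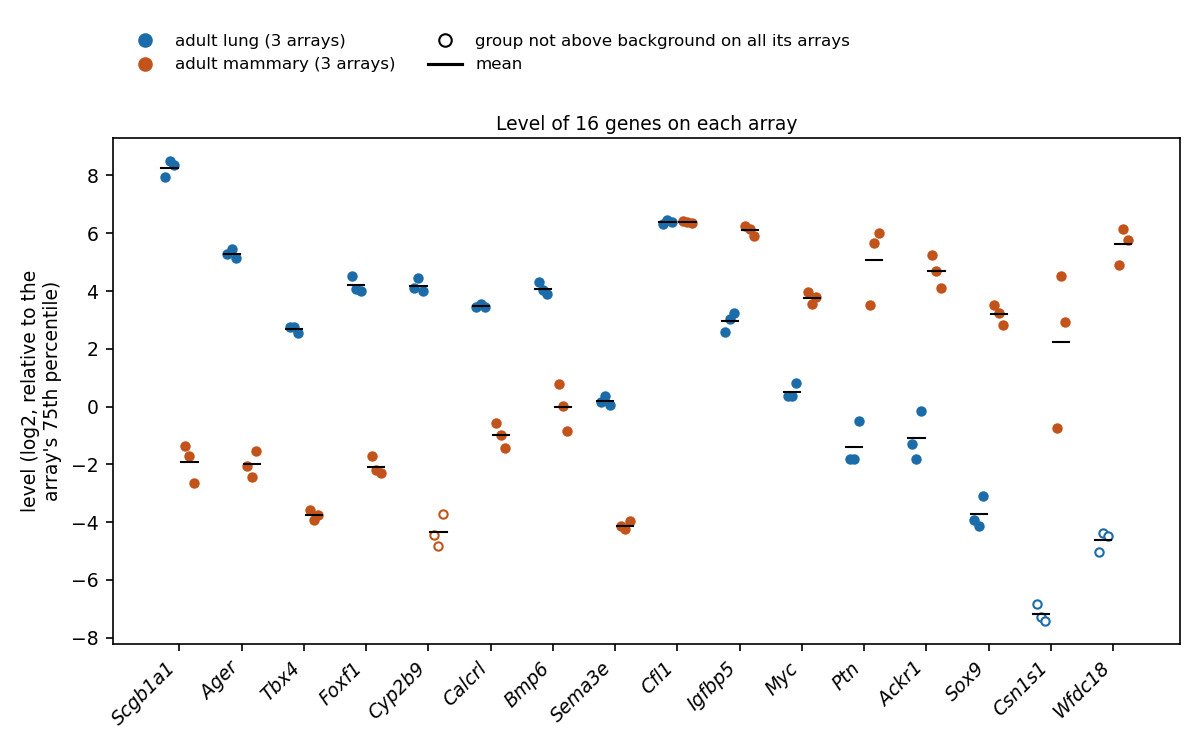
Level of 16 genes on each of the 3 lung arrays (blue) and 3 mammary arrays (orange), log2 relative to the array's 75th percentile, with bars at the group means. Open circles mark a group that was not above background on all its arrays. For 15 of the genes the 2 groups do not overlap, as for 54.0% of all genes, and the largest differences were named among such genes. The levels of Cfl1 lie together, between 6.32 and 6.47. Within a group, Csn1s1 in mammary shows the widest spread, from -0.73 to 4.53.

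The largest differences toward the mammary gland were in milk proteins, and the caseins of chromosome 5 varied widely between mammary arrays. Wfdc18, a small secreted protein of the whey acidic protein family, stood at 4.91, 6.15 and 5.77 in mammary and at -5.02, -4.39 and -4.47 in lung, at least 1090.0-fold apart, with 2 lung arrays above background. Csn3, kappa-casein, stood at 3.08, 3.65 and 4.50 in mammary and was at least 325-fold lower in lung, where 1 array was above background. The calcium-binding caseins lie side by side on chromosome 5 and moved together from array to array. Csn1s1 stood at -0.73, 4.53 and 2.94 in mammary, Csn1s2a at -0.64, 4.57 and 1.67, and Csn2 at -3.09, 2.59 and 0.01. Mammary replicate 1 was the lowest and replicate 2 the highest for all 3 of these genes, and none was above background on any lung array. The mammary levels were at least 141-fold, 109-fold and 26.5-fold above lung, and all 3 calls were lost with normexp background correction. Csn2 passed narrowly (difference -6.99, SE 2.08, adjusted p = 0.0291) and lost the call when lung replicate 1, 2 or 3 or mammary replicate 2 or 4 was left out, with differences of -7.14 to -5.62. Btn1a1, butyrophilin of the milk fat globule, stood at 0.95, 0.14 and 0.87, without the low value on replicate 1 that the caseins had.

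Promoter sequences are shown for these genes because 3 casein neighbours moved together and because the casein promoters are known targets of Stat5, the factor that prolactin activates. They are the 250 bases before the start site in RefSeq, build GRCm38.p6, written 5′ to 3′ on the gene's strand. Capitals mark the letters TTCNNNGAA, the core bound by Stat factors, or those of the box that places many start sites (TATAAA), each searched on both strands.
Csn1s1: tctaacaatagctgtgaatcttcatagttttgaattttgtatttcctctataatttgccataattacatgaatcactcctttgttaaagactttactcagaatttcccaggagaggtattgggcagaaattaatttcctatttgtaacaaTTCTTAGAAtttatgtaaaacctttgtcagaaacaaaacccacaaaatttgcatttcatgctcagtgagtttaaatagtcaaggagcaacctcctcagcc
Csn2: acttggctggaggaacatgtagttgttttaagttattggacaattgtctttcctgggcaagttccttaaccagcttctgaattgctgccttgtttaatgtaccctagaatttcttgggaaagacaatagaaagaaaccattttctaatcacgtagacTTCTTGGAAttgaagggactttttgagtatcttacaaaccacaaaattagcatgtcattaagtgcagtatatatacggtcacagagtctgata
Csn1s2a: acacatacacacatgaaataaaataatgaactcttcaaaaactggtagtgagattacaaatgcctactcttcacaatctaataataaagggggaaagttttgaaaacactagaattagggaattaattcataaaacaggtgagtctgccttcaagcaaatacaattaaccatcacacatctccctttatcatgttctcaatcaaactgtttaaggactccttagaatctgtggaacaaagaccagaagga
Wfdc18: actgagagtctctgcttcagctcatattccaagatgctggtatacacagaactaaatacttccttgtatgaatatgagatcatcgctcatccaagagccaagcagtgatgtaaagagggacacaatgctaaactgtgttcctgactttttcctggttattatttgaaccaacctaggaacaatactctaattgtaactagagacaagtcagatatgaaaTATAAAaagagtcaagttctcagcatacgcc
These windows lie at chr5:87665958-87666207 (Csn1s1, plus strand), chr5:87699426-87699675 (Csn2, minus strand), chr5:87774200-87774449 (Csn1s2a, plus strand) and chr11:83708754-83709003 (Wfdc18, plus strand). The Stat letters lay 100 to 92 bases before the start of Csn1s1 and 93 to 85 bases before that of Csn2, and were not in the Csn1s2a window. The TATA letters of Wfdc18 lay 31 to 26 bases before its start. The Stat letters were in 7.18% of all 27025 promoters in the table, 6.18% of the 11749 tested genes with a promoter there, 9 of 94 such genes at least 16-fold higher in mammary (9.57%) and 2 of 78 at least 16-fold higher in lung (2.56%). TATAAA was in 8.96%, 11.7% and 11.5% of the last 3 of these groups. A match is a description of the letters, and counts this small set no group apart.

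Beyond milk proteins, the mammary-high genes covered hormone response, growth factors and mucosal defence. Prlr, the prolactin receptor, stood at 4.39, 3.04 and 4.37 in mammary and at -3.36, -2.47 and -3.09 in lung, 120.0-fold apart. Cited1, a transcriptional co-regulator of hormone-sensing cells, differed by -6.51 (90.9-fold). Ptn, pleiotrophin, a heparin-binding growth factor, stood at 3.53, 5.66 and 6.02 in mammary and at -1.83, -1.83 and -0.49 in lung. Fcgbp, a mucin-like protein that binds the Fc part of IgG, stood at 8.22, 6.88 and 7.52 in mammary, against 1.02, 1.48 and 1.44 in lung, a call lost once slide entered the fit as a block. Ackr1, an atypical chemokine receptor of venules, stood at 5.25, 4.71 and 4.10 in mammary and at -1.29, -1.80 and -0.17 in lung, opposite to most endothelial genes. Calca, the calcitonin gene, was at least 102-fold higher in mammary on its brightest probe and differed by -3.17 on another. H2-M9, a non-classical MHC class I gene, was at least 99.3-fold higher, with no lung array above background. Muc15, a membrane mucin, and Alox12e, an epidermal lipoxygenase, were at least 47.8-fold and 79.4-fold higher, the latter lost once slide entered the fit as a block or with normexp background correction.

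Transcription factors differed in nearly every family, with few families moving in 1 direction. Foxf1, a forkhead factor of lung mesenchyme and capillaries, stood at 4.53, 4.07 and 3.99 in lung and at -1.72, -2.21 and -2.30 in mammary, 77.3-fold apart. Its relative Foxf2 and the endoderm factor Foxa2 were not above background on any mammary array and were at least 16.5-fold and 19.3-fold higher in lung. Tbx4, a T-box factor of lung mesenchyme and hindlimb, stood at 2.77, 2.77 and 2.53 in lung and at -3.59, -3.93 and -3.74 in mammary, although its other tested probe differed by only 2.36. Nkx2-1, the factor that defines lung endoderm, was at least 124-fold higher in lung. Gata2, a factor of endothelial and blood cells, stood at 3.99, 4.00 and 3.83 in lung and at 0.96, -0.06 and -0.40 in mammary, and Tcf21, a factor of lung and kidney mesenchyme, differed by 4.18. Several of the factors highest in lung are thus known from mesenchyme or vessels, and their source in these preparations was not measured.

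On the mammary side, Sox9, a factor of progenitor cells in many epithelia, stood at 3.51, 3.24 and 2.82 in mammary and at -3.93, -4.12 and -3.11 in lung, 120.0-fold apart. Of 11 AP-2, grainyhead and p63 factors, which act in ectodermal epithelium, 7 were lower in lung and none higher (median -1.17), with 6 lower when both arrays that stood apart were left out, 4 with normexp and 3 with slide as a block. Tfap2c stood at 2.77, 3.93 and 3.31 in mammary and at -2.96, -3.17 and -1.74 in lung. Foxc1, Gata3 and Myc differed by -3.31, -3.32 and -3.25. Among nuclear receptors, Esrrb was at least 28.5-fold and Vdr, the vitamin D receptor, at least 14.3-fold higher in mammary, within a family of 41 tested genes that had 6 higher and 9 lower in lung. The family counts were 8 and 7 with quantile normalization and 2 and 5 without both arrays that stood apart. Foxi1, a forkhead factor of ionocytes, was at least 14.9-fold higher in mammary, a call lost with normexp background correction, and Atp6v1b1, a proton pump subunit that Foxi1 is known to drive, differed by -5.36 and was lost once slide entered the fit as a block. The pump subunit Atp6v0a4 went the other way, at least 7.55-fold higher in lung. The ionocyte and proton pump list, written after these values were seen, had 3 of 10 genes lower and 1 higher, or 1 and 1 with normexp or with slide as a block.

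Hox genes, whose clusters carry positional identity along the body axis from low to high paralog number, were called higher mostly at low and lower mostly at high paralog numbers. Of 11 tested genes of paralog groups 1 to 5, 4 were higher in lung and 1 lower, with a median of 0.80. Of 18 genes of groups 6 to 13, none was higher and 7 were lower, with a median of -0.30 that turned to 0.36, with 2 lower, under normexp background correction. Among genes above background on all 6 adult arrays, 4 of 7 in groups 1 to 5 were higher and none lower. Of the 11 such genes in groups 6 to 13, none was higher and 2 were lower (median 0.05). Hoxa5 stood at 0.43, 0.52 and 0.45 in lung and at -2.77, -3.05 and -3.56 in mammary, and Hoxb5 differed by 3.13. Hoxc10 stood at 1.76, 1.58 and 0.81 in mammary and was not above background on any lung array, at least 77.7-fold lower, with its other probe at -3.49. Hoxc10, Hoxc9 and Hoxc8, neighbours on chromosome 15, were all lower in lung, with differences of -8.22 to -2.44, although Hoxc9 and Hoxc8 turned to 0.06 and 0.53 under normexp background correction, with no call, and Hoxc9 also lost its call without both arrays that stood apart and with slide as a block (-2.47). Hoxc8 lost its call in the authors' values as well (-0.89). Hoxd9 differed by -4.11 on its brightest probe and by -0.14 on the other, so that call rests on the probe. The exception in the low groups was Hoxd4, which differed by -3.32, a call lost with normexp background correction, as was that of Hoxd8. Hoxb3, the weakest of the 4 higher genes (0.80, adjusted p = 0.0253), lost its call when lung replicate 1 or 2 or mammary replicate 2 or 4 was left out, with differences of 0.69 to 0.78, and also with normexp (0.61) and with the replicate number as a block (0.87). The other probe of Hoxb3 differed by 0.15, so that call rests on the probe as well. Hoxa3 did not pass on its brightest probe (0.77), whereas its other probe differed by 2.02 (adjusted p = 0.00241 in limma). The division into low and high groups was made after the values were seen.

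**Figure D4:**
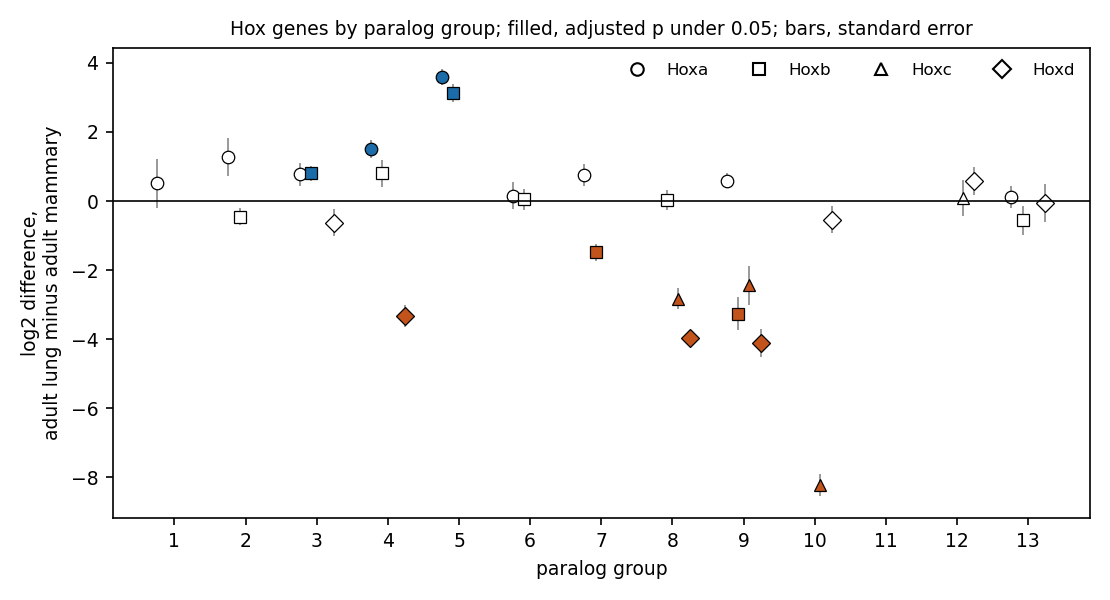
Difference between adult lung and adult mammary cells (log2, lung minus mammary) for the 29 tested Hox genes, by paralog group, with symbols for the clusters and bars for the standard error. Filled symbols passed an adjusted p of 0.05. The 4 genes called higher in lung lie in groups 3 to 5 and 7 of the 8 called lower lie in groups 7 to 10; Hoxd4 (-3.32) is the remaining one.

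Vascular signals were higher in lung as a group. Of 23 VEGF, angiopoietin, apelin and endothelin genes, 16 were higher and 1 lower (median 1.89), and 15 were higher and none lower without both arrays that stood apart. Vegfa, the main growth factor of vessels, stood at 4.59, 5.02 and 4.96 in lung and at 1.77, 2.23 and 1.86 in mammary, 7.47-fold apart. Its receptor Kdr stood at 3.84, 3.87 and 3.99 against 1.52, 1.62 and 0.19. The groups did not overlap for either ligand or receptor, as for 54.0% of all genes. Of 29 vasoactive peptide and nitric oxide genes, 17 were higher and 4 lower (median 1.49), and 12 and none without both arrays that stood apart. Calcrl, the receptor for adrenomedullin and calcitonin gene-related peptide, stood at 3.43, 3.54 and 3.44 in lung and at -0.58, -0.97 and -1.44 in mammary, and its partner Ramp2 differed by 3.42. Npr3, the clearance receptor for natriuretic peptides, differed by 4.96, Ace, the angiotensin-converting enzyme, by 3.52, and Vipr2, a receptor for vasoactive intestinal peptide, was at least 47.4-fold higher. Hpgd, which inactivates prostaglandins, differed by 4.67. The 18 of 20 endothelial markers noted above moved the same way, with array medians of 3.65 to 3.91 in lung against 0.58 to 1.83 in mammary, and their part in these differences was not tested. Within that list Vwf and Emcn did not pass, with differences of 0.26 and 0.30.

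Semaphorins, plexins, slits and their receptors, which guide axons and vessels, leaned to the lung as well: 20 of 44 were higher and 3 lower (median 0.79), 14 and 3 without both arrays that stood apart, and 11 and 2 with slide as a block. Sema3e stood at 0.16, 0.35 and 0.07 in lung and at -4.15, -4.25 and -3.96 in mammary, and Sema3a was at least 10.3-fold higher, with 1 mammary array above background. Sema4f differed by 3.11. Ntng1, a netrin-like membrane protein, went the other way, at least 12.9-fold higher in mammary and lost with normexp background correction. Of 22 Notch pathway genes 9 were higher and 2 lower (median 0.41), and 5 and 2 without both arrays that stood apart. They included Notch4, the endothelial receptor, at 4.24, 4.03 and 3.92 in lung and 1.08, 0.74 and 0.04 in mammary. The fringe enzyme Mfng and the ligand Dll4 differed by 2.32 and 1.60.

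Branching signals were divided between the organs. In the BMP and TGF-beta family 12 of 55 genes were higher and 15 lower (median 0.12). The balance turned to 10 and 6 without both arrays that stood apart, 12 and 8 without lung replicate 3 or with normexp, and 7 and 4 with slide as a block. The ligands Bmp6 and Bmp5 were higher in lung, Bmp6 at 4.32, 4.04 and 3.89 against 0.78, 0.02 and -0.84 and Bmp5 at 1.29, 1.59 and 1.63 against -2.47, -2.89 and -2.28. Smad6, an inhibitor that BMP signals induce, differed by 4.00 and the receptor Acvrl1, measured on 2 lung arrays, by 2.85. Fst, follistatin, which binds activin, and Inhba, the activin A subunit, were both lower in lung, with differences of -3.99 and -3.04. Among 49 Wnt genes 8 were higher and 12 lower, which turned to 12 and 4 with normexp and to 4 and 4 with slide as a block. Wnt3a stood at -0.58, 0.07 and -0.06 in lung and was above background on no mammary array, at least 31.7-fold apart, and Nkd1, a feedback inhibitor of Wnt signalling, differed by 3.12 (SE 0.15). Wnt10a, a ligand of ectodermal appendages, was at least 13.8-fold higher in mammary and stood at -6.82, -7.05 and -2.50 in lung, raised on replicate 3; without that array the difference was -6.70. Of 16 Hedgehog pathway genes 3 were higher and 3 lower (median -0.49), or 2 and none with slide as a block. Shh, the Hedgehog ligand of lung epithelium, was at least 9.94-fold higher in lung and above background on no mammary array. Hhip, which binds and limits Shh, differed by 3.27.

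In the EGF family, 7 of 16 genes were lower in lung and none higher (median -1.13), and 4 and none without both arrays that stood apart. Normexp gave 2 lower and 1 higher (median -0.53), slide as a block 3 and none, and quantile normalization 6 and 1. Areg, amphiregulin, the ligand that acts downstream of estrogen in the mammary duct, stood at 3.61, 2.31 and 4.10 in mammary and at 0.03, -0.15 and 0.24 in lung. Erbb4 was at least 10.6-fold higher in mammary, a call lost with normexp background correction. Among insulin-like growth factor genes, Igfbp5, a binding protein of the mammary gland, stood at 6.26, 6.16 and 5.91 in mammary and at 2.57, 3.04 and 3.24 in lung, 8.94-fold apart, whereas Igfbp2 differed by 2.06 toward the lung. Stc2, stanniocalcin, was at least 62.3-fold higher in mammary, with levels of 3.17, -0.17 and 2.55 that varied widely. Of 32 FGF genes 7 were higher and 4 lower (5 and 1 without both arrays that stood apart, 2 and 1 with slide as a block), with the receptors Fgfr3 and Fgfr4 higher in lung by 2.39 and 2.14.

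Cytochrome P450 enzymes, which oxidise drugs, steroids and fatty acids, leaned to the lung. Of 59 tested genes 20 were higher and 3 lower (median 0.43), and 16 and 3 without both arrays that stood apart. The genes with the largest differences belong to the Cyp2 subfamilies. Cyp2b9 stood at 4.12, 4.44 and 4.01 in lung, at least 365-fold above mammary, where 2 arrays were above background, and Cyp2b10 stood at 2.89, 3.08 and 2.95, at least 123-fold above. Cyp2f2, a club cell enzyme that activates naphthalene, stood at 4.70, 5.66 and 5.73 in lung and at -1.41, -0.35 and -0.83 in mammary, 74.8-fold apart. On the mammary side Cyp1b1, which hydroxylates estrogens, stood at 2.18, 3.70 and 1.90 against -2.80, -3.00 and -2.24 in lung, 38.7-fold apart. Cyp24a1, which inactivates vitamin D, was at least 20.0-fold higher in mammary, a call lost with normexp background correction. The glutathione transferase Gsta3 was at least 119-fold higher in lung and Gsta1 14.9-fold.

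In RefSeq gene order, 15 stretches held at least 3 neighbouring tested genes that all differed at least 4-fold in the same direction, 4 toward the lung and 11 toward the mammary gland, and together they held 48 of the 1136 genes that differed so much. The longest, on chromosome 7, ran through Cyp2s1, Cyp2b10, Cyp2b13, Cyp2b9 and Cyp2a4, with differences of 3.87 to 8.51. A nearby stretch held Cyp2a5, Cyp2a22 and Cyp2f2 (2.48 to 6.69), and a stretch on chromosome 1 held the flavin monooxygenases Fmo4, Fmo1 and Fmo2 (2.59 to 3.63). The fourth, on chromosome 2, held Foxa2, Sstr4 and the endothelial lectin-domain genes Thbd and Cd93. Among those toward the mammary gland were the caseins, the Hoxc genes, the chloride channel regulators Clca3a1, Clca3a2 and Clca3b (-6.64 to -2.85) and the proteoglycans Dcn, Lum and Kera (-4.12 to -2.11), of which Lum lost its call once slide entered the fit as a block while Kera turned to 0.49, with no call, under normexp background correction. The slide block also ended the calls of Cyp2a5 and Clca3b. Related genes in such a stretch can share sequence, and whether probes read more than 1 of them was not tested. Cyp2b9 and Cyp2b10 are shown as the pair with the largest differences in the longest stretch, again as 250 bases before the start in RefSeq GRCm38.p6.
Cyp2b9: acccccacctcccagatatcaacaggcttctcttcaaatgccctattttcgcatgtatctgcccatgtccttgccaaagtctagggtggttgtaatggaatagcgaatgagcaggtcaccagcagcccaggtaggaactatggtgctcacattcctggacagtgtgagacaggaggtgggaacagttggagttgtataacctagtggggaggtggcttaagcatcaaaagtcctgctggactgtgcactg
Cyp2b10: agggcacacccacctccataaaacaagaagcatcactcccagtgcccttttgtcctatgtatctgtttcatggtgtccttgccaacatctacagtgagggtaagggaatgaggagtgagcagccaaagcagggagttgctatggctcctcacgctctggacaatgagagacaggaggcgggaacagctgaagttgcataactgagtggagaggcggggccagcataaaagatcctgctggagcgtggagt
They lie at chr7:26173159-26173408 and chr7:25897408-25897657, both on the plus strand, and neither window holds TATAAA or TTCNNNGAA.

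Lipid and retinoid enzymes included leading genes of both organs. Of 28 surfactant phospholipid and lamellar body genes 14 were higher in lung and 1 lower (median 0.69), 9 and 1 without both arrays that stood apart, and 8 and none with slide as a block. Slc34a2, the phosphate carrier of type II cells, stood at 5.15, 5.30 and 5.10 in lung and at -1.61, -2.97 and -1.86 in mammary, and Pla2g1b, a phospholipase, differed by 4.98. Among 27 fatty acid and milk lipid genes 7 were higher and 4 lower, or 5 and 2 with slide as a block. Fabp4, the fatty acid binding protein of adipocytes and capillaries, stood at 7.04, 6.27 and 5.99 in mammary and at 1.52, 1.40 and 2.18 in lung. Aldehyde dehydrogenases of the Aldh1a group went in opposite directions. Aldh1a1 stood at 6.13, 6.33 and 6.14 in lung against 2.47, 1.40 and 1.34 in mammary. Aldh1a7 was at least 37.0-fold higher in lung, whereas Aldh1a3 was at least 46.0-fold higher in mammary. Lrat, which stores retinol as esters, and Cyp26b1, which degrades retinoic acid, differed by 4.79 and 3.32. Rbp7, a retinol-binding protein of fat and vessels, differed by -4.62.

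Membrane transport genes differed in both directions. Of 69 glucose and amino acid carriers 16 were higher and 16 lower (median 0.02), against 8 and 15 without both arrays that stood apart, 17 and 9 with normexp and 4 and 10 with slide as a block. Slc7a10 and Slc38a5, carriers of small neutral amino acids, stood at 1.13, 1.58 and 1.37 and at 1.54, 1.83 and 1.69 in lung, at least 64.9-fold and 64.7-fold above mammary. Slc6a2, the noradrenaline carrier, was at least 10.9-fold higher in lung. Slc5a5, the sodium iodide symporter that moves iodide into milk, stood at 2.07, -1.45 and 1.43 in mammary and was at least 41.2-fold higher there, a call lost with normexp background correction. Of 57 potassium channel genes 10 were higher and 14 lower, which turned to 10 and 4 with normexp and was 4 and 6 with slide as a block. Among them were Kcne2, at least 26.3-fold higher in lung, and Kcnab1, at least 20.3-fold higher in mammary. Car4, the membrane carbonic anhydrase of alveolar capillaries, stood at 4.87, 4.45 and 4.33 in lung and at 1.14, -0.18 and -0.29 in mammary, and Scnn1g, a subunit of the epithelial sodium channel, was at least 11.6-fold higher in lung. Fxyd2, a regulator of the sodium pump, was 12.3-fold higher in mammary.

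Claudin, keratin and collagen genes were called lower in lung more often than higher. Of 19 claudins 2 were higher and 7 lower (median -0.70), or 2 and 4 with slide as a block: Cldn18 and the endothelial Cldn5 toward the lung, and Cldn6 (at least 71.1-fold) and Cldn4 (35.1-fold) among those toward the mammary gland. Among 29 keratins 8 were lower and none higher, and 13 were lower without lung replicate 3. Krt8 and Krt18, the pair of simple epithelia, stood at 2.99, 3.50 and 3.43 and at 2.32, 2.64 and 2.44 in lung against 6.61, 6.38 and 6.30 and 6.25, 5.89 and 5.68 in mammary. Krt5, the basal keratin, stood at -3.43, -2.88 and 3.14 in lung and at 2.29, 2.74 and 2.97 in mammary, missed the threshold with all arrays (adjusted p = 0.0708) and differed by -5.82 without lung replicate 3. The keratin median of -0.75 turned to 0.40, with 5 lower, under normexp background correction, a setting that by itself shifted the overall median, 0.0 in the main scaling, to 0.34. Of 15 interstitial collagens 6 were lower and none higher (median -1.08), 4 without both arrays that stood apart and 2 with slide as a block, whereas in basement membrane Col4a3, a chain of the glomerular and alveolar membrane, stood at 1.91, 1.92 and 1.54 in lung and at -3.67, -3.94 and -4.33 in mammary. Npnt, nephronectin, and its receptor chain Itga8 differed by 4.08 and 2.38. Mfap4, an elastic fibre protein, differed by 4.37, Fbln2, a fibulin, by -2.23 and the aggrecanase Adamts4 by -4.27.

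Host defence genes differed in both directions. Of 41 complement and coagulation genes 7 were higher and 16 lower, with a median of -0.69 that turned to 0.09 (7 and 8) under normexp background correction. Without both arrays that stood apart 4 were higher and 9 lower, and 4 and 8 with slide as a block. Fgb, the fibrinogen beta chain, stood at 3.27, 2.04 and 3.14 in mammary and was above background on no lung array, at least 209-fold lower. C3, the central complement protein, stood at 5.06, 4.76 and 4.69 in mammary and 3.12, 3.25 and 3.24 in lung, whereas C6, of the membrane attack complex, differed by 3.81 toward the lung. Of 48 chemokine genes 4 were higher and 7 lower, and 2 and 3 without lung replicate 3. The share called, 22.9% of the list, was below the 28.6% of all genes. The called chemokine genes included the eosinophil attractant Ccl11 at 2.48, 1.84 and 1.20 in mammary and -2.83, -3.17 and -1.58 in lung, and Cxcl1, which draws neutrophils, at -2.62. Ptx3, a soluble pattern receptor, differed by -5.77. Among MHC class I and II genes 1 of 32 was higher and 2 lower, 9.38% of the list and also below the 28.6% of all genes.

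Ribosomal protein genes were lower in lung as a group, and the translation factors that were called leaned the same way. Of 81 ribosomal protein genes 71 were lower and none higher (median -0.98), and 50 were lower and none higher without both arrays that stood apart. The medians of the list on single arrays were 4.65, 4.58 and 4.67 in lung and 5.6, 5.57 and 5.69 in mammary, so every lung array lay below every mammary array. Rps26 stood at 3.24, 3.23 and 3.40 in lung and at 5.17, 5.28 and 5.16 in mammary, and Rpl32 at 3.37, 3.34 and 3.44 against 5.23, 5.17 and 5.07. Rpl41 did not pass, at 6.72 and 6.92 on lung replicates 1 and 3 and 6.90, 6.92 and 7.19 in mammary. Each ribosomal median kept its sign under the other backgrounds and scalings, from -1.14 with normexp to -0.79 with quantile normalization, and 30 genes were lower once slide entered the fit as a block. Of 68 translation factors 31 were lower and 2 higher (median -0.57), 19 and none without both arrays that stood apart and 9 and 1 with slide as a block. Pabpc1, the poly(A)-binding protein, differed by -1.48. Of 81 oxidative phosphorylation subunits 29 were lower and 4 higher (median -0.45), but only 12 and 3 without both arrays that stood apart and 3 and 1 with slide as a block. The higher subunits included the muscle-type Cox8b at 2.90. Of 44 endoplasmic reticulum secretion genes 1 was higher and 1 lower (median -0.05), at most 2 and 3 under other scalings.

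Some genes that serve as loading references differed between the organs. Of 16 such genes 6 were lower in lung and none higher (median -0.48), 3 without both arrays that stood apart and none with slide as a block. Gapdh stood at 3.79, 4.21 and 4.15 in lung and at 5.01, 4.92 and 5.20 in mammary, while Actb differed by 0.29 and did not pass. Among the 200 brightest genes, those with the smallest differences included Cfl1, cofilin, at 6.32, 6.47 and 6.40 in lung and 6.43, 6.38 and 6.36 in mammary, and Canx, calnexin, at 5.14, 4.97 and 5.07 against 5.05, 4.97 and 5.01. Other probes of Cfl1 and Canx differed in sign from these, by at most 0.26. Of 28 immediate-early genes, which respond within minutes to stress and to tissue digestion, 14 were lower in lung and none higher (median -0.96). Without both arrays that stood apart 9 were lower, with slide as a block 4, and the authors' values gave 15 lower and 2 higher. Nr4a2 stood at 1.37, 0.96 and 1.34 in lung and at 4.08, 3.27 and 2.87 in mammary. Egr1 lay at 5.02, 5.10 and 4.83 against 5.38, 4.60 and 4.92, and the groups overlapped. The digestion times of 45 and 30 minutes follow the organ, so their effect on these genes and that of the organ cannot be told apart.

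**Figure D5:**
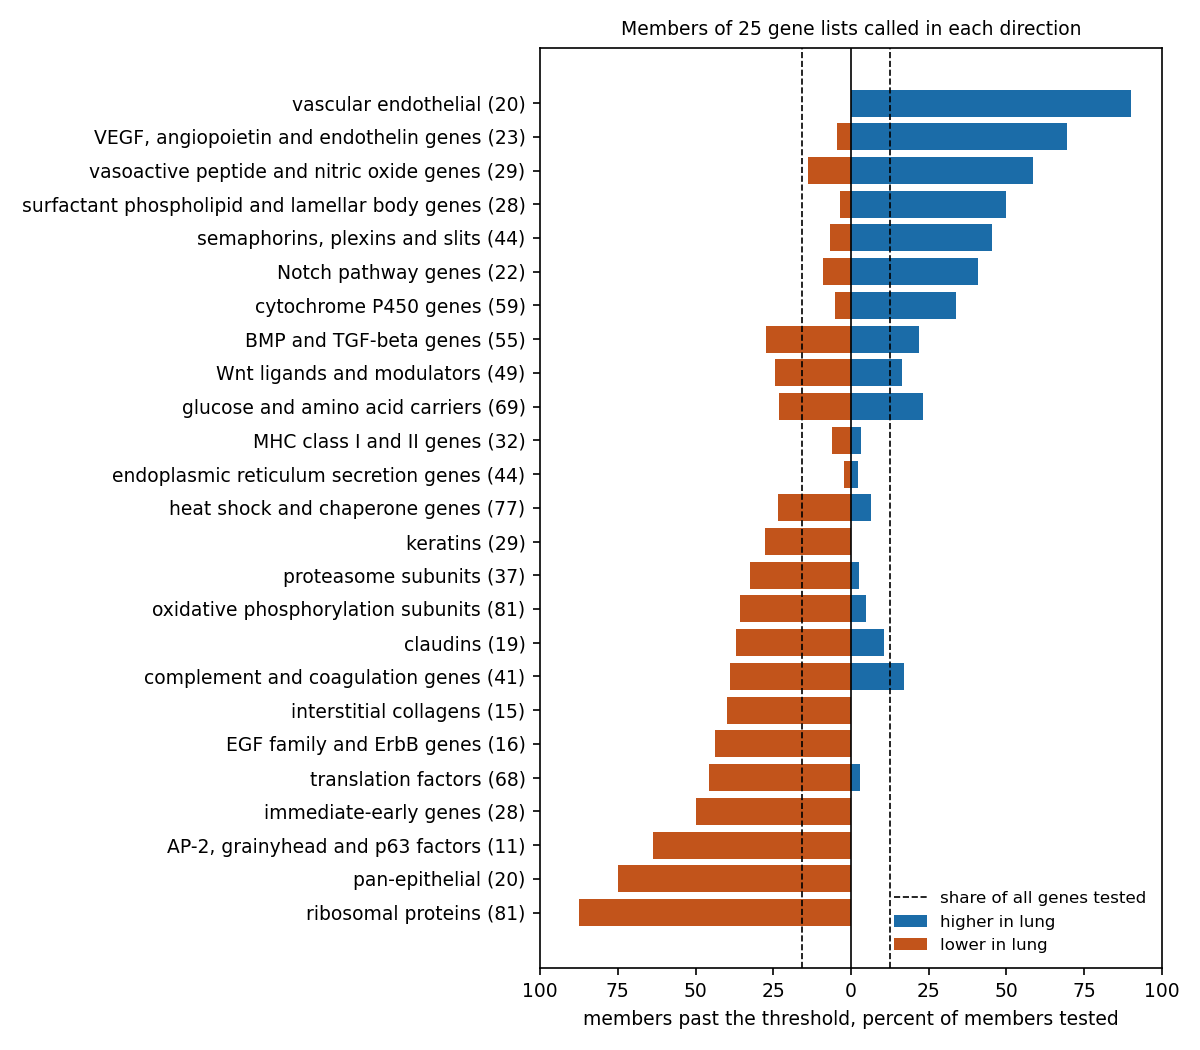
Share of the tested members of each gene list that passed an adjusted p of 0.05, lower in lung to the left and higher in lung to the right, in percent, with the number of members tested in parentheses. Dashed lines mark the shares over all genes with a symbol (15.9% lower and 12.7% higher). Vascular endothelial genes (90.0% called) extend farthest to the right and ribosomal proteins (87.7%) farthest to the left among the lists drawn.

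Some lists changed with the arrays that stood apart. Without lung replicate 3, squamous genes went from 1 higher and 2 lower to 1 and 8, and their median went from 0.12 to -0.96 (-0.66 once slide entered the fit as a block). Connexins went from 3 higher to none, though their median moved only from -0.22 to -0.30. Without mammary replicate 4, the lymphocyte median went from 1.40 to 2.70 (-0.25 once slide entered the fit as a block). Cell cycle genes went from 7 lower to 2 (median -0.95 to -0.61), and glutathione and antioxidant genes from 8 lower to 1 (median 0.02 to 0.10). Leaving out any 1 adult array left 4730 to 5888 calls over all features, against 6979 with all arrays. The part of the smaller number of arrays in these falls was not tested. Proliferation genes were themselves uneven within the mammary group. The array medians of the cell cycle list were -0.66, 0.58 and 1.04 in mammary and -0.85, -0.54 and -0.58 in lung. Without mammary replicate 1 the median difference was -1.43. Pcna, lowest on mammary replicate 2 instead, stood at 2.83, 2.54 and 3.51 in mammary and at 1.52, 1.26 and 1.29 in lung. The cell cycle inhibitor Cdkn2b, higher in lung by 3.31, kept its direction without any 1 array, from 3.07 to 3.71.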

How the data were processed

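Labelled cRNA of each sample was hybridised alone to a 1-colour Agilent mouse array after low-input linear amplification of total RNA, per the labels. The deposited scanner files hold the authors' spot intensity; the processed signal is background-subtracted, with Agilent Feature Extraction 10.5.1.1 per the file headers (10.1 in the submitters' processing notes). The authors' deposited value table holds log2 values whose columns rank as the raw median signal (lowest Spearman rho 0.999994), with medians of 6.78 to 6.79; its scaling beyond that is unstated, and it served as an alternative.

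Control spots and outlier spots (97 to 160 per adult array) were left out, spots of a probe were averaged, and log2 of the processed signal was taken relative to the array's 75th percentile (a signal of 293.8 to 608.5 on the adult arrays, against 18.0 to 22.0 for negative controls). No spot was saturated on any array (0). Precision is limited by 3 arrays a group. Of 41174 probes, 24844 had a gene symbol, and the probe with the highest mean over all 12 arrays stood for a gene. One mean per group was fitted over all 12 arrays with limma 3.58.1 in R 4.3.3 (lmFit and eBayes, 8 residual and 2.37 prior degrees of freedom, Benjamini-Hochberg at 0.05), with tables made in Python 3.11.15. On simulated data, with 50 features changed by each amount, 13 changes of 1 log2 unit were called, 36 of 2, 43 of 3 and 47 of 4. False calls numbered 6 among 24195 features. The share changed was far below the 28.5% of features called in the data, so these rates need not hold here. Promoters and gene order came from RefSeq, matched by gene identifier, and the promoters shown were picked by symbol.

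Genes were named by rule: the 15 largest called, non-overlapping differences in each direction, over all genes and over those measured on all 6 arrays; up to 4 called members of each list in each direction, with some uncalled or brightest members; the 10 factors with the largest difference in each direction; and the least different of the 200 brightest genes. Other named genes (neighbours in a stretch, further Hox, Cyp2 and Fmo genes, Cd3d, Asprv1, Epcam and others) were chosen after their values were seen. The groups and gene lists were chosen with earlier results of these data known. Replicate numbers 1 and 2 are shared by both groups but are not said to pair samples. Alternatives changed the background correction (normexp on the median signal, offset 50), scaling, filter, blocks, weights and arrays.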

Additional observations from a re-analysis of the deposited data

How the results depend on the processing

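Counts of features higher and lower in lung moved by more than 1.5 times in 4 ways. Once slide entered the fit as a block they were 1283 and 1419, with array weights the higher count was 4877 (5528 lower), and with normexp background correction the lower count was 1858 (2895 higher). Without lung replicate 3 and mammary replicate 4 together, an alternative chosen after seeing the data, they were 1835 and 2212. Leaving out single arrays gave 2056 to 2663 higher and 2674 to 3351 lower. The other alternatives stayed within 1.5 times, among them quantile normalization (3182 and 3430), the authors' values (3373 and 3418) and no filter (2573 and 3280). With the replicate number as a block, 2261 were higher and 2773 lower. Of those 5034 calls, 4775 were shared with the fit without it. Arrays numbered 1 correlated at 0.206 in their deviations from the group means and arrays numbered 2 at -0.088. Other pairs of a lung and a mammary array gave -0.181 to 0.14. With 3 arrays a group these values cannot settle whether the numbers pair samples. Hoxc8, Hoxc9 and Kera, all lower in lung as reported, turned to 0.53, 0.06 and 0.49 with normexp, without a call. The causes of these moves were not tested. Genes not well above background in an organ have only a bound there, and many calls on such genes were lost with normexp.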
